A study of Mus musculus with 12 samples.

Results

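The genes of the RANK pathway and of the transcription factors that act behind it were followed in bone marrow-derived monocytes (BMDMs) induced toward osteoclasts. They were given as a list of named genes and comprised 8 of the 21899 genes in the table: Tnfrsf11a, Traf6, Map3k7, Nfatc1, Prdm1, Mitf, Tfec and Ppargc1b. All 8 passed the filter on low counts, which left 11670 genes for testing.

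The 4 groups were represented by 3 RNA-seq libraries each, 12 in all. The cells came from tibias and femurs of C57BL/6 mice, for which the labels name no engineered allele, and in every group received RANKL at 100 ng/ml and M-CSF at 50 ng/ml. The MR group is labelled with these cytokines alone. The dBRD9 group also received dBRD9, a PROTAC that has the bromodomain protein BRD9 degraded, and the JQ1 group received JQ1, which displaces BET proteins from acetylated chromatin. The DEX + iBRD9 group received the glucocorticoid dexamethasone and iBRD9, a compound that blocks the bromodomain of BRD9. The study describes this combination at low doses, and reports that its iBRD9 dose had no apparent effect alone on osteoclast formation. With neither DEX nor iBRD9 given by itself in these 12 libraries, their effects cannot be told apart. The labels give neither the animals' age nor the source culture of each replicate, while the study's methods for such cultures name femurs of young wild-type C57BL/6J mice. The p-values therefore measure the spread between these libraries, which may be technical.

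RANKL binds its receptor RANK on osteoclast precursors, the adaptor TRAF6 is recruited to the receptor, and the kinase TAK1 passes the signal on to NF-κB and the MAP kinases. Calcium and calcineurin then activate NFATc1, the master transcription factor of the osteoclast. Blimp1 silences genes that oppose this program, the related factors MITF and TFEC act with PU.1 on osteoclast genes, and PGC-1β drives the formation of mitochondria on which the resorbing cell depends.

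Total counts were 14875951 to 18067758 per library. Of the macrophage marker list, all 8 genes were detected above 1 CPM (counts scaled to library size by TMM), with Csf1r, the M-CSF receptor, at a mean of 1517 CPM in MR. Markers of T and NK cells summed to at most 0.129 CPM in any library. The calcitonin receptor gene Calcr, a marker of mature osteoclasts, was at 0 in every library. Albumin (Alb), a liver transcript, divided the libraries: it had 738 to 1031 counts in MR replicate 3, all dBRD9 and all JQ1 libraries, and at most 2 counts in MR replicates 1 and 2 and all DEX + iBRD9 libraries. Values with this division as a term in the fit are given for the calls of the 8 genes, and for the counts or medians of the gene lists, that it changes. The term then sets dBRD9 and JQ1 against MR replicate 3 alone, and DEX + iBRD9 against MR replicates 1 and 2. Between DEX + iBRD9 and dBRD9 or JQ1, Alb follows the group. There the term rests on MR replicate 3 against MR replicates 1 and 2. All comparisons against MR share the same 3 MR libraries. In these bulk samples, fewer cells of a type and less RNA per cell cannot be told apart.

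Compared with MR, Nfatc1 rose and Tnfrsf11a, Prdm1, Mitf, Tfec and Ppargc1b fell with JQ1. In that comparison 6 of 8 genes passed the test at an adjusted p under 0.05, where 61.6% of all genes tested passed (edgeR, n = 3 per group), 30% as higher and 31.6% as lower. With dBRD9 Mitf was the 1 gene of the 8 that passed, as lower, where 1.64% of all genes passed, 1.12% as lower. This Mitf call was lost with the Alb term and when any 1 of 4 libraries was left out. With DEX + iBRD9 none of the 8 passed, and 1.95% of all genes did. Without adjustment 2 of the 8 had a p under 0.05 in that comparison, Mitf and Tfec, as did 15.6% of all genes, and DESeq2 called 0. Mitf did pass there in edgeR fits without the JQ1 libraries, and also without the filter on low counts. In the JQ1 comparison the 8 genes had a median log2 fold change of −0.43, against −0.01 over all genes. Of the 8 values 5 lay below 0 and 3 above. Taken without sign, the median change was 0.44 for the 8 genes and 0.39 over all genes, so its size did not set them apart. Scaling by total counts alone shifted the signed median of all genes with JQ1 to −0.20, so directions of small JQ1 changes are relative to the scaling.

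**Figure D1:**
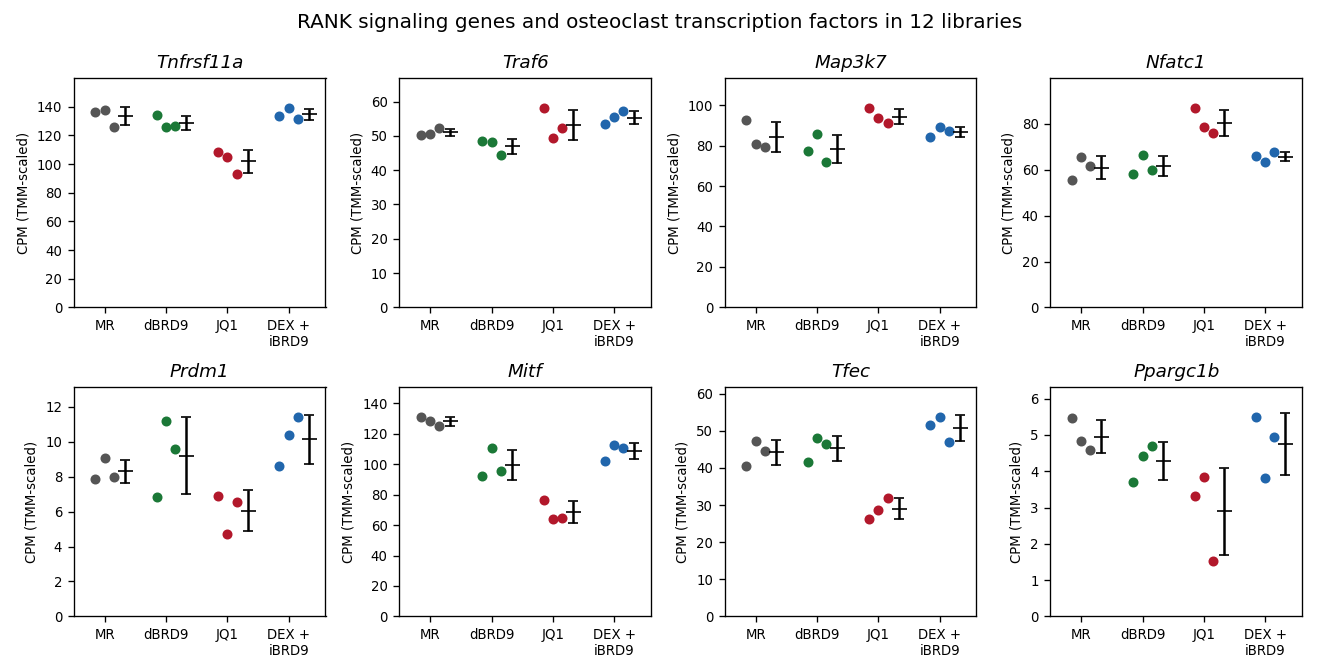
Counts scaled to library size by TMM (CPM, vertical axis, starting at 0) of the 8 genes in each of the 12 libraries. Points are libraries, and bars are the group mean ± SD (n = 3). The JQ1 libraries lie below all others for Tnfrsf11a, Mitf and Tfec, and above all others for Nfatc1.

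**Figure D2:**
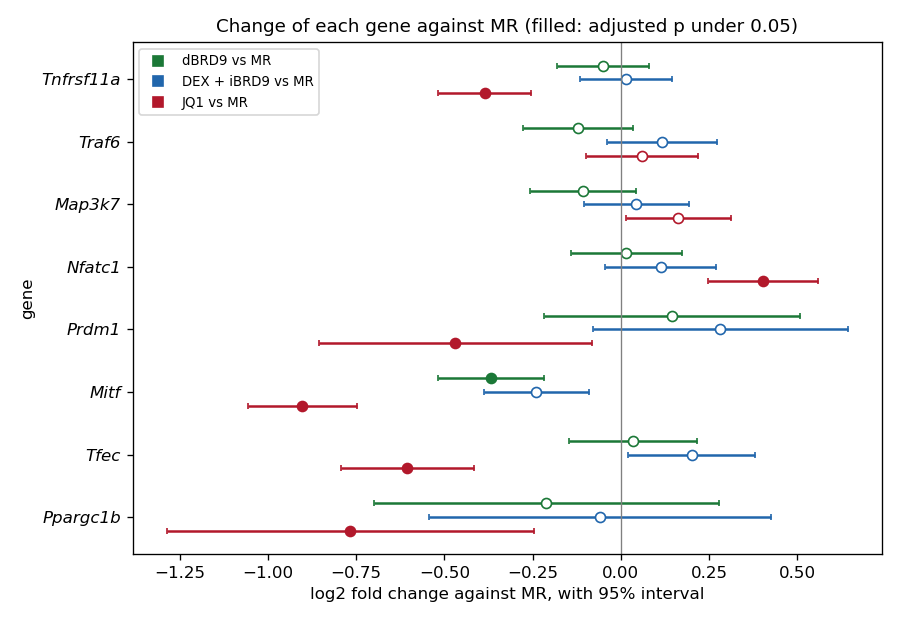
Log2 fold change of each gene against MR with its 95% interval (edgeR fit of all 12 libraries, n = 3 per group). Filled points passed at an adjusted p under 0.05, namely 1 gene with dBRD9, 6 with JQ1 and none with DEX + iBRD9.

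Letters that transcription factors of this lineage can recognise were searched, on both strands, in the stretch from 250 bases before to 50 bases after each annotated start, for 6 of the genes (8 windows, 3 of them of Mitf; RefSeq, GRCm38.p6). The motifs were GGAAGT (PU.1-type ETS), TGANTCA (AP-1), CACGTG and CATGTG (boxes bound by the MiT factors), TGACGTCA (cAMP response element) and GGAAA (NFAT core). Of 32851 windows of the genome's genes, 23.8% held GGAAGT, 7.81% TGANTCA, 7.15% CACGTG, 14.2% CATGTG, 1.79% TGACGTCA and 61.3% GGAAA. None of these motifs contains another of them. The matches to GGAAGT, shown because PU.1 is the partner of the MiT factors in osteoclasts, lay in the windows of Tfec, Prdm1 and Map3k7, and the capitals mark the motif.
Tfec: tgataaagaaaGGAAGTcgccttaactt
Prdm1: cgcctgcaaagGGAAGTaagaagattcc
Map3k7: aaaccggaactGGAAGTgtggtgggcgg
These lie at chr6:16898495-16898522 on the minus strand for Tfec (motif at position -70 from the start), chr10:44458934-44458961 on the minus strand for Prdm1 (position -202) and chr4:31964071-31964098 on the plus strand for Map3k7 (position -25). The Prdm1 window also held an AP-1 match (position -48, chr10:44458779-44458807, minus strand), in capitals here.
Prdm1: gctggtaggagTGAATCAgaccgtcagta
The NFAT core GGAAA matched in the windows of Map3k7, Mitf and Tfec. Nfatc1 and Ppargc1b had no window here and were not searched. Neither CACGTG nor CATGTG matched in any of the 8 windows. A match describes the letters and not a bound site. Of the genes with a GGAAGT match, Prdm1 and Tfec fell with JQ1 and Map3k7 did not pass. Of the searched genes without one, Tnfrsf11a and Mitf fell with JQ1 as well and Traf6 did not pass.

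Tnfrsf11a encodes RANK, the receptor of RANKL (GRCm39 chr1:105708358-105777170, plus strand). Its level was 136, 137 and 126 CPM in the MR libraries, 134, 126 and 126 CPM with dBRD9, 134, 139 and 132 CPM with DEX + iBRD9, and 108, 105 and 92.8 CPM with JQ1. All 3 JQ1 libraries lay below all 9 others, which overlapped each other. The fall from MR with JQ1 was larger than the change of 49.7% of all genes tested in this comparison. Tnfrsf11a fell by 0.39 ± 0.065 on the log2 scale with JQ1 (SE; edgeR, adjusted p = 7.5e-06), a level of 0.765-fold. The log2 fold change was −0.05 with dBRD9 (95% interval −0.18 to 0.08) and 0.02 with DEX + iBRD9 (−0.12 to 0.15). Per length, RANK was the highest of the 8 genes in MR, at 22.9 ± 1.10 FPKM (SD, n = 3; fragments scaled to gene length and library size, as deposited).

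Traf6, the adaptor that binds the RANK tail (GRCm39 chr2:101508519-101533545, plus strand), did not pass against MR in any group. Its level was 50.3, 50.5 and 52.3 CPM in MR, 48.4, 48.1 and 44.3 CPM with dBRD9, 58.0, 49.5 and 52.2 CPM with JQ1, and 53.3, 55.4 and 57.2 CPM with DEX + iBRD9. The MR libraries lay above all dBRD9 and below all DEX + iBRD9 libraries, by small amounts. The log2 fold change was −0.12 ± 0.077 with dBRD9 (edgeR, adjusted p = 0.45), 0.12 ± 0.076 with DEX + iBRD9 (0.49) and 0.06 ± 0.077 with JQ1 (0.51). The JQ1 value was −0.13 when libraries were scaled by total counts only.

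Map3k7 encodes TAK1, the kinase activated behind TRAF6 (GRCm39 chr4:31963864-32051628, plus strand). It measured 92.7, 80.6 and 79.4 CPM in MR, 77.3, 85.6 and 71.9 CPM with dBRD9, 98.4, 93.4 and 91.2 CPM with JQ1, and 84.3, 89.2 and 87.1 CPM with DEX + iBRD9. MR replicate 1 lay within the JQ1 range, and the other MR libraries lay below it. With JQ1 the log2 fold change was 0.16 ± 0.073 (edgeR, adjusted p = 0.053). The value crossed the threshold without MR replicate 1 (0.24, adjusted p = 0.012) or JQ1 replicate 3 (0.19, adjusted p = 0.044), as well as with DESeq2 size factors (0.17, adjusted p = 0.048), and it was −0.02 under total-count scaling (adjusted p = 0.8). Against MR, dBRD9 gave −0.11 (95% interval −0.26 to 0.04) and DEX + iBRD9 gave 0.04 (−0.10 to 0.19).

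Nfatc1 (GRCm39 chr18:80649266-80756295, minus strand) was the single gene of the 8 that rose against MR. Its level was 55.5, 65.4 and 61.7 CPM in MR, 58.1, 66.5 and 60.0 CPM with dBRD9, 66.0, 63.6 and 67.8 CPM with DEX + iBRD9, and 86.9, 78.8 and 76.0 CPM with JQ1. Every JQ1 library exceeded every other library. The rise from MR with JQ1 was larger than the change of 51.3% of all genes tested in this comparison. The mean rose from 60.9 ± 5.0 to 80.5 ± 5.64 CPM (SD, n = 3) with JQ1, a log2 fold change of 0.40 ± 0.076 (edgeR, adjusted p = 4.2e-05). This call held in all 8 alternative settings, with log2 fold changes of 0.22 to 0.41 and adjusted p of at most 0.017, the lowest of these changes under total-count scaling. With dBRD9 the log2 fold change was 0.02 (95% interval −0.14 to 0.17) and with DEX + iBRD9 0.11 (−0.04 to 0.27).

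Prdm1, which encodes the repressor Blimp1 (GRCm39 chr10:44313171-44404497, minus strand), was expressed at a low level, with 76 to 198 counts per library. It measured 7.87, 9.06 and 8.0 CPM in MR, 6.82, 11.2 and 9.58 CPM with dBRD9, 6.87, 4.69 and 6.56 CPM with JQ1, and 8.60, 10.4 and 11.4 CPM with DEX + iBRD9. The JQ1 libraries lay below those of MR and of DEX + iBRD9, and dBRD9 replicate 1 fell into the JQ1 range. With JQ1 Prdm1 fell by 0.47 ± 0.19 on the log2 scale (edgeR, adjusted p = 0.033). The call was lost without MR replicate 2 (adjusted p = 0.11), without JQ1 replicate 2 (0.19) and with the Alb term (0.22). The log2 fold change was 0.15 with dBRD9 (95% interval −0.22 to 0.51) and 0.28 with DEX + iBRD9 (−0.08 to 0.64). Blimp1 is also known from plasma cells. Of the list of 7 plasma and B cell markers, 5 were below 1 CPM in every library, and the list summed to 62.5 to 70.4 CPM in MR, 78.9 to 85.5 CPM with dBRD9, 8.45 to 9.67 CPM with JQ1 and 67.8 to 77.2 CPM with DEX + iBRD9. Most of the sum was Sdc1, which fell with JQ1 from 64.3 to 8.85 CPM. The part of such cells in the Prdm1 values was not tested.

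Mitf, the founding member of the MiT factors and needed for osteoclast function in mice (GRCm39 chr6:97783950-97998323, plus strand), was highest in MR. Its level was 131, 128 and 125 CPM in MR, 102, 113 and 110 CPM with DEX + iBRD9, 92.1, 110 and 95.6 CPM with dBRD9, and 76.7, 64.3 and 64.9 CPM with JQ1. All 9 treated libraries lay below the lowest MR library. The DEX + iBRD9 and dBRD9 libraries overlapped, and the JQ1 libraries lay below both.

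With dBRD9, Mitf fell by 0.37 ± 0.073 on the log2 scale (edgeR, adjusted p = 0.011), to a mean of 99.3 ± 9.67 from 128 ± 2.76 CPM (SD, n = 3). This change was larger than that of 90.7% of all genes tested in this comparison. The call was lost without MR replicate 1 (adjusted p = 0.069), MR replicate 2 (0.062), dBRD9 replicate 1 (0.072) or dBRD9 replicate 3 (0.06), while the value stayed between −0.45 and −0.32. With the Alb term, which leaves MR replicate 3 as the control, the log2 fold change was −0.33 (adjusted p = 0.67).

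With JQ1, Mitf fell by 0.90 ± 0.075 on the log2 scale, to 0.535-fold (edgeR, adjusted p = 1.6e-11), and the call held in every alternative and with each library left out. This was the largest change among the 8 genes in that fit. With DEX + iBRD9 the log2 fold change was −0.24 ± 0.073 (unadjusted p = 0.0027, adjusted p = 0.085 in the edgeR fit). It passed in the fit of the 9 libraries without JQ1 (adjusted p = 0.011), in the fit of the 6 libraries compared (0.0017) and without the filter on low counts (0.024).

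Of the 3 annotated Mitf starts that were searched, the most downstream held a cAMP response element in its window (position -153, chr6:97991619-97991648, plus strand). The element, in capitals below, is shown because the Mitf windows differ from each other. The counts sum over all starts of the gene, so they do not show whether this start was active in these cells.
Mitf: gaaaaaaagcaTGACGTCAagccagcaggg

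Tfec, the MiT factor largely confined to macrophages and osteoclasts (GRCm39 chr6:16833372-16898440, minus strand), measured 40.6, 47.3 and 44.6 CPM in MR and 41.5, 48.0 and 46.3 CPM with dBRD9, ranges that nearly coincided. It was 51.7, 53.6 and 47.0 CPM with DEX + iBRD9 and 26.4, 28.7 and 32.0 CPM with JQ1, where every library lay below all others. Tfec fell by 0.61 ± 0.092 on the log2 scale with JQ1 (edgeR, adjusted p = 1.7e-06), and the call held in all alternatives. That fall was larger than the change of 66.0% of all genes tested in the comparison. The log2 fold change with dBRD9 was 0.04 (95% interval −0.15 to 0.22). With DEX + iBRD9 it was 0.20 ± 0.088, with an unadjusted p of 0.0303 and an edgeR adjusted p of 0.26.

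Beside their relatives, the MiT factors shifted in composition. Per length, Mitf stood at 21.3 ± 0.461 FPKM in MR (SD, n = 3), Tfe3 at 18.1 ± 0.946, Tfec at 8.13 ± 0.637 and Tfeb at 6.26 ± 0.391 FPKM. With JQ1, Mitf was at 10.0 ± 1.08 FPKM and Tfe3 at 23.8 ± 1.07 FPKM, so that Tfe3 held 54.0 ± 1.43% of the summed FPKM of the 4 genes, against 33.6 ± 1.59% in MR. The share of Mitf was 40.7, 39.7 and 38.5% in the MR libraries, 30.6, 35.2 and 31.4% with dBRD9, 32.3, 35.3 and 35.02% with DEX + iBRD9 and 25.1, 21.3 and 21.8% with JQ1.

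Every treated library had a lower Mitf share of this 4-gene sum than every MR library. The difference from MR was −7.21 percentage points with dBRD9, −5.44 with DEX + iBRD9 and −16.9 with JQ1, each with a two-sided exact permutation p of 0.1, the smallest that 3 against 3 libraries can give. Between JQ1 and dBRD9 it was −9.67 points and between JQ1 and DEX + iBRD9 −11.4 points, each with an exact permutation p of 0.1, and between DEX + iBRD9 and dBRD9 1.77 points (exact permutation p = 0.3). Counted among Mitf and Tfec alone, the last 3 differences turned sign, to 1.58, 2.14 and −0.56 points. Against MR the share among these 2 genes differed by −5.96 points with dBRD9 and −6.51 with DEX + iBRD9 (exact permutation p = 0.1 each), and by −4.38 with JQ1 (exact permutation p = 0.3). In that pair JQ1 replicate 1, at 72.4%, lay above MR replicates 2 and 3, at 71.0 and 71.7%, so the JQ1 and MR libraries overlapped, while the other treated libraries lay below MR. In the edgeR fit Tfe3 rose with JQ1 by 0.58 ± 0.057 on the log2 scale (adjusted p = 3.9e-10), and Tfeb was at 0.01 ± 0.097. Markers of melanocytes and mast cells, which also use MITF, summed to 0.903 to 2.63 CPM in MR, 0.737 to 1.29 CPM with dBRD9, 0.908 to 1.30 CPM with JQ1 and 0.633 to 2.09 CPM with DEX + iBRD9, with Tyr, Dct and Mcpt4 at 0 in all. The 1 tested gene of these 6, Kit, the receptor of stem cell factor, fell with JQ1 from 1.42 ± 0.692 to 0.188 ± 0.267 CPM (SD, n = 3; edgeR adjusted p = 0.0014) and did not pass with dBRD9 (0.827 CPM) or DEX + iBRD9 (0.881 CPM). Its part in the Mitf values was not tested.

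**Figure D3:**
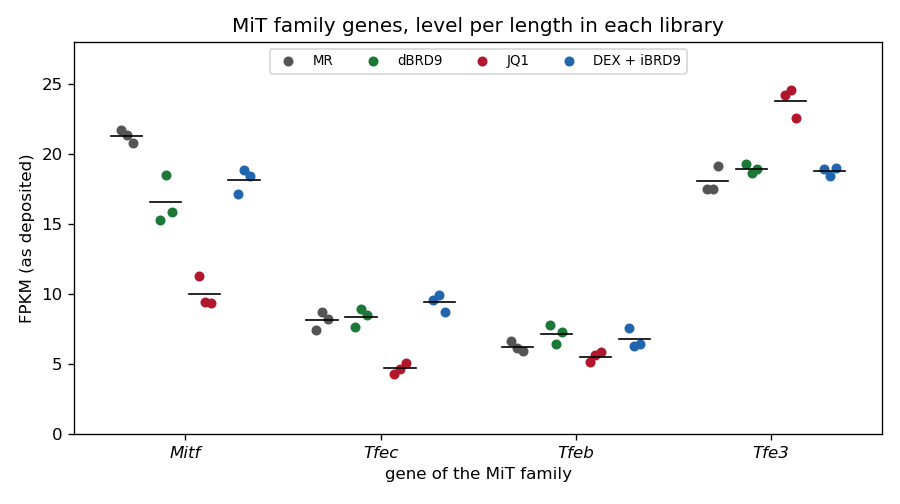
Level per length (FPKM as deposited, vertical axis) of the MiT factor genes Mitf, Tfec, Tfeb and Tfe3 in each library, coloured by group. Points are libraries and lines are group means (n = 3). Mitf was 21.3 FPKM in MR and 10.0 with JQ1, while Tfe3 was 18.1 and 23.8 FPKM.

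Ppargc1b, which encodes the coactivator PGC-1β (GRCm39 chr18:61431195-61533735, minus strand), had the fewest counts of the 8 genes, 22 to 97 per library. It measured 5.46, 4.83 and 4.58 CPM in MR, 3.70, 4.43 and 4.71 CPM with dBRD9, 3.32, 3.83 and 1.54 CPM with JQ1, and 5.49, 3.82 and 4.95 CPM with DEX + iBRD9. The JQ1 libraries lay below those of MR, and JQ1 replicate 3 lay far below its own group. Ppargc1b fell by 0.77 ± 0.25 on the log2 scale with JQ1 (edgeR, adjusted p = 0.01). The log2 fold change was −0.47 without JQ1 replicate 3 (adjusted p = 0.098), and the Alb term also ended the call (adjusted p = 0.14). Its intervals were wide in the other groups, with −0.21 (−0.70 to 0.28) for dBRD9 and −0.06 (−0.54 to 0.42) for DEX + iBRD9. Its locus overlaps the miRNA gene Mir378a and 4 other noncoding genes, and the counting's strand setting is not given in the sources used here.

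The treatments were also compared with each other. Between JQ1 and dBRD9, 7 of 8 genes passed, where 63.2% of all genes did (edgeR), 30.4% as higher and 32.8% as lower. Nfatc1 was higher with JQ1 by 0.39 ± 0.076 on the log2 scale, Map3k7 by 0.27 ± 0.073 and Traf6 by 0.18 ± 0.077. Tnfrsf11a differed by −0.34 ± 0.065, Mitf by −0.53 ± 0.076, Prdm1 by −0.61 ± 0.19 and Tfec by −0.64 ± 0.092, all lower with JQ1. Traf6 had an edgeR adjusted p of 0.042 and lost the call without dBRD9 replicate 2 (0.054), dBRD9 replicate 3 (0.14) or JQ1 replicate 1 (0.2), and it was at −0.01 under total-count scaling. Map3k7 was at 0.08 under that scaling (adjusted p = 0.36). Prdm1 lost the call without dBRD9 replicate 2 (adjusted p = 0.059) or JQ1 replicate 2 (0.051). Ppargc1b, at −0.55 ± 0.26 with an edgeR adjusted p of 0.061, passed without dBRD9 replicate 1 (0.049) or JQ1 replicate 2 (0.016). It was at −0.25 without JQ1 replicate 3 (adjusted p = 0.38).

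Between JQ1 and DEX + iBRD9, 6 of 8 genes passed, where 61.7% of all genes did (edgeR), 30.3% as higher and 31.4% as lower. Nfatc1 was higher with JQ1, by 0.29 ± 0.076 on the log2 scale. Lower with JQ1 were Tfec (−0.81 ± 0.092), Prdm1 (−0.75 ± 0.19), Ppargc1b (−0.71 ± 0.25), Mitf (−0.66 ± 0.075) and Tnfrsf11a (−0.40 ± 0.065). The JQ1 libraries all held Alb and the DEX + iBRD9 libraries did not, so the Alb term rests here on MR replicate 3 against MR replicates 1 and 2. The part of lost precision in the calls that it ended was not tested. With the Alb term 2 of these calls remained, Tfec (−0.83) and Mitf (−0.61). The other 4 did not pass with it in edgeR: Tnfrsf11a was at −0.28 (adjusted p = 0.06), Nfatc1 at 0.26 (0.16), Prdm1 at −0.67 (0.13) and Ppargc1b at −0.54 (0.37). The call of Ppargc1b was lost without JQ1 replicate 3 (adjusted p = 0.15) or DEX + iBRD9 replicate 1 (0.083), and that of Nfatc1 under total-count scaling (0.09, adjusted p = 0.3).

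Between DEX + iBRD9 and dBRD9 none of the 8 genes passed in edgeR, where 2.36% of all genes did. At an unadjusted p under 0.05 there were 2, Traf6 (0.24 ± 0.076, adjusted p = 0.088) and Map3k7 (0.15 ± 0.073, adjusted p = 0.28), both higher with DEX + iBRD9, while 17.3% of all genes had such a p. DESeq2 called 1, Traf6 (adjusted p = 0.046), which also passed in edgeR fits of the 6 libraries compared (0.04) and of the 9 libraries without JQ1 (0.026). Mitf was at 0.13 in this comparison (95% interval −0.02 to 0.28) and Nfatc1 at 0.10 (−0.06 to 0.25).

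Ordered by their levels, Mitf ran from MR through DEX + iBRD9 and dBRD9 down to JQ1. In that order DEX + iBRD9 passed against neither neighbour (edgeR adjusted p of 0.085 and 0.38), and dBRD9 and JQ1 passed. Against MR, its unadjusted edgeR p was 0.0027, and its libraries all lay below those of MR. For Nfatc1 the JQ1 group stood above and the other 3 groups could not be separated in order. For Tnfrsf11a and Tfec the JQ1 group stood below 3 groups whose neighbours did not pass against each other. For Prdm1 MR and JQ1 were the lowest neighbours and passed, and for Ppargc1b, Traf6 and Map3k7 no pair of neighbours did. Non-overlap with MR was seen for 2 of 8 genes with dBRD9 and for 2 of 8 with DEX + iBRD9, Traf6 and Mitf in each case, where 25% and 25.1% of all genes did not overlap. With JQ1 it was 6 of 8 genes, and 63.4% of all genes. Between the treatments it was 6 of 8 for JQ1 against dBRD9 (63.7% of all genes), 6 of 8 for JQ1 against DEX + iBRD9 (64.4%) and 1 of 8 for DEX + iBRD9 against dBRD9 (25.8%).

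The genes around RANK were set beside these. Of 28 tested genes of RANK signal transduction, 15 rose and 6 fell with JQ1, and 7 did not pass (edgeR, median log2 fold change 0.19, all-gene median −0.01). Over all genes tested 61.6% passed in this comparison, 30% as higher and 31.6% as lower, and the counts of the lists that follow are read against these shares. Map3k14, the NIK kinase of non-canonical NF-κB signaling, rose from 36.0 ± 3.27 to 67.9 ± 4.65 CPM (SD, n = 3), by 0.92 on the log2 scale. Nfkbia, the NF-κB inhibitor IκBα, rose by 0.77 and Map2k4, a kinase of the JNK branch, by 0.54. Src, the tyrosine kinase needed for the ruffled border of osteoclasts, fell from 25.7 ± 1.99 to 3.48 ± 0.982 CPM, by 2.86 on the log2 scale. Tnfaip3, the NF-κB brake A20, was at −0.95 and Ikbkg, the NEMO subunit of the IκB kinase, at −0.48, both called. Under total-count scaling 8 genes of this list rose and 10 fell, and with the Alb term 9 and 6 did. The ligand gene Tnfsf11 and the decoy receptor gene Tnfrsf11b did not pass the filter on low counts. With dBRD9 and with DEX + iBRD9 none of the 28 passed in edgeR (1 and 3 at an unadjusted p under 0.05, as were 16.6% and 15.6% of all genes tested) or in DESeq2.

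Of 16 tested genes of calcium, calcineurin and NFAT, 7 rose and 4 fell with JQ1 (median 0.13; under total-count scaling 6 and 6, with the Alb term 6 and 3). These 11 of 16 stood beside 61.6% of all genes, so the count did not set the list apart. The IP3 receptor gene Itpr3 rose by 0.68, the calcineurin subunit gene Ppp3ca by 0.67 and the NFAT factor Nfatc2 by 0.46. Itpr2, another IP3 receptor, was at −0.87, Rcan1, a calcineurin inhibitor, at −0.29 and Dyrk1a, a kinase that opposes NFAT, at −0.26, all called as lower. With dBRD9 none of the 16 passed in edgeR (3 at an unadjusted p under 0.05, where 16.6% of all genes were), while DESeq2 called 2 as lower, Gsk3b and Nfat5, named after their values were seen. With DEX + iBRD9 none passed in edgeR (1 at an unadjusted p under 0.05) or in DESeq2.

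Of 11 tested osteoclast genes known as targets of NFATc1 and MITF, 9 fell, 1 rose and 1 did not pass with JQ1 (edgeR, median −2.35, all-gene median −0.01; with the Alb term 8 fell and 1 rose), where 31.6% of all genes fell. Atp6v0d2, a proton pump subunit that also serves cell fusion, fell from 28.3 ± 2.52 to 4.61 ± 1.13 CPM, and Mmp9, a matrix protease, from 115 ± 6.97 to 19.4 ± 2.44 CPM (log2 fold changes −2.61 and −2.56). Mmp14, a membrane-bound protease, was at −2.56, and Ostm1, a partner of the chloride channel ClC-7, rose by 0.53. With DEX + iBRD9, Mmp9 rose by 0.30 ± 0.071 to 142 CPM (edgeR, adjusted p = 0.019). Ctsk, the collagen-degrading cathepsin K, fell by 1.04 ± 0.22 on the log2 scale in that group, from 8.11 to 3.92 CPM (adjusted p = 0.011). Ctsk lay under the expression level set for naming genes and was named after its values were seen. DESeq2 called Mmp9 in that group, and Ostm1 as lower in place of Ctsk. With the Alb term neither Mmp9 (0.28, edgeR adjusted p = 0.12) nor Ctsk (−0.88, adjusted p = 0.084) passed. Mmp9 lost the call without MR replicate 1 (adjusted p = 0.1), MR replicate 3 (0.12), DEX + iBRD9 replicate 1 (0.084) or DEX + iBRD9 replicate 2 (0.13), and Ctsk without MR replicate 3 (0.095) or DEX + iBRD9 replicate 3 (0.1). Of the 8 macrophage markers 1 was called in that group, Itgam, an integrin subunit of myeloid cells, which fell from 215 to 138 CPM (log2 fold change −0.64, edgeR adjusted p = 0.021). The list summed to 17207 to 18913 CPM there and 19452 to 19844 CPM in MR. The part of these markers in the Mmp9 and Ctsk values was not tested. With dBRD9 none of the 11 passed in edgeR (3 at an unadjusted p under 0.05, where 16.6% of all genes were) or in DESeq2. The genes Oscar, Calcr and Car2 did not pass the filter.

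Of 8 genes listed as repressors of osteoclast formation, some of them genes that Blimp1 is known to silence, 6 rose with JQ1 and none fell. Their median log2 fold change was 1.59, and 30% of all genes rose in this comparison. Under total-count scaling 6 rose and 1 fell, and with the Alb term the median was 1.29. Whether each listed gene acts as a repressor in these cells, Cebpa and Irf4 included, was not tested. Id3 rose from 0.996 ± 0.361 to 24.7 ± 3.04 CPM and Id1 from 2.01 ± 0.631 to 15.6 ± 2.19 CPM, both inhibitors of basic helix-loop-helix factors, and the myeloid factor Cebpa rose by 1.82 on the log2 scale. Among the genes Blimp1 silences, Irf8 rose by 0.94, while Bcl6 was at −0.06 and did not pass. Irf8 and Bcl6 were named after their values were seen. With dBRD9 and with DEX + iBRD9 none of these 8 passed in edgeR (0 and 2 at an unadjusted p under 0.05) or in DESeq2. Macrophage markers moved in the same libraries: the list summed to 35464 to 40696 CPM with JQ1 and 19452 to 19844 CPM in MR, of its 8 genes 4 rose and 4 fell, and Lyz2 made up most of the sum. Fcgr1, an Fc receptor, fell from 197 to 8.98 CPM, and Mertk, a phagocytic receptor, rose from 48.4 to 182 CPM. Of 6 stromal cell markers 4 were tested and all 4 fell with JQ1, Col1a1 from 10.3 to 6.26 CPM and Col1a2, the other chain of type I collagen, from 8.12 to 5.50 CPM. That list summed to 22.03 to 27.1 CPM in MR and 13.7 to 15.8 CPM with JQ1. The part of these markers in the JQ1 results was not tested.

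Of the 5 other genes of the MiT family and its partners, 2 rose and 1 fell with JQ1 (median 0.01), a share near the 61.6% of all genes that passed. Usf1, a related helix-loop-helix factor, rose by 0.54, and Spi1, which encodes PU.1, was at −0.16 ± 0.058 (446 to 400 CPM, edgeR adjusted p = 0.022), a call lost with the Alb term. Of 11 tested genes of the PGC-1 family and its partners, 2 rose and 6 fell with JQ1 (median −0.31; 0 and 6 under total-count scaling, 0 and 5 with the Alb term), where 61.6% of all genes passed and 31.6% fell. Pparg, the nuclear receptor PPARγ, fell from 22.2 ± 1.87 to 7.61 ± 0.827 CPM, and Pprc1, the third member of the PGC-1 family, was at −0.60. Gabpa, which acts on nuclear genes of mitochondria, was at −0.57, while Esrra, the nuclear receptor partner of PGC-1β, rose by 0.32 and Tfb2m, a mitochondrial transcription factor, by 0.42. Ppargc1a did not pass the filter. With dBRD9 and with DEX + iBRD9 no gene of these lists passed in edgeR: at an unadjusted p under 0.05 there were 1 and 0 of the MiT list and 1 and 2 of the PGC-1 list, and DESeq2 called Gabpa as lower in both groups.

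**Figure D4:**
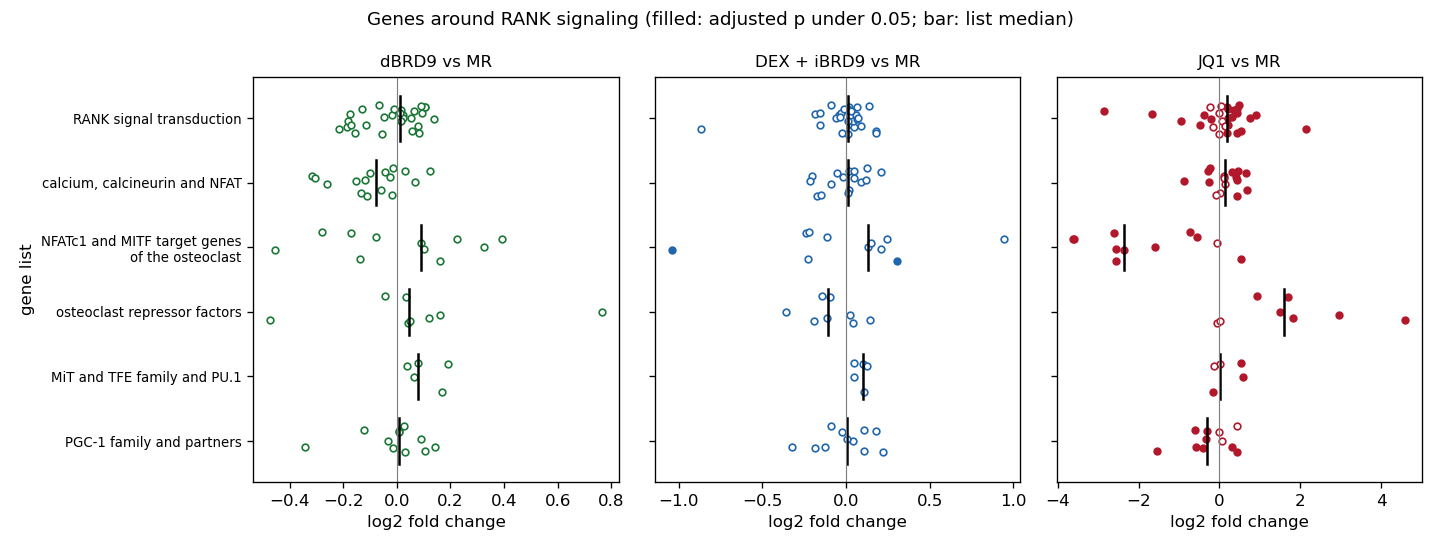
Log2 fold change against MR (horizontal axis, a separate scale in each panel) of the tested genes of 6 lists around RANK signaling, for dBRD9, DEX + iBRD9 and JQ1. Points are genes, filled where the edgeR adjusted p was under 0.05, and bars are list medians. With JQ1 these medians were −2.35 for the target genes and 1.59 for the genes listed as repressors.

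For each of the 8 genes, the gene with the most similar profile over the 12 libraries was sought, among the 9408 to 9409 other tested genes that averaged 5 CPM or more, by the Pearson correlation of log2 CPM, as a description. The libraries share the large JQ1 difference, so r is also given over the 9 other libraries. For Mitf it was Gcnt1, a glycosyltransferase gene (0.980; 0.917 without JQ1), for Tnfrsf11a Pde4dip (0.985; 0.814), for Tfec Cwc22, a splicing factor gene (0.977; 0.830), and for Nfatc1 Zfp868 (0.961; 0.821). For Prdm1 it was Vkorc1l1 (0.953; 0.888), for Map3k7 Ercc6 (0.937; 0.896), for Traf6 Pcm1 (0.921; 0.933) and for Ppargc1b Afg1l (0.921; 0.604). None of the 8 closest genes was itself among the 8.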

How the data were processed

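The deposited table holds gene counts and FPKM for 12 libraries. According to the submitters' notes, the authors trimmed reads with cutadapt, aligned them to GRCm39 with HISAT2 and counted with HTSeq. The FPKM were computed by the authors from the same counts. The implied gene lengths were 3990 to 7883 bases and did not differ between libraries. Strand setting was not given in the sources used here, and 6 of the 8 genes overlap noncoding genes. Counts were tested with edgeR 4.0.16 under R 4.3.3: filterByExpr (minimum count 10, minimum total 15), TMM scaling, and a robust quasi-likelihood fit of all 12 libraries with 8 residual degrees of freedom. Benjamini-Hochberg adjustment ran over 11670 genes, and genes under 0.05 were called. The biological coefficient of variation was 7.29%. Pairs of groups gave 6 comparisons. Log2 CPM used a prior count of 2. Shares of FPKM were compared by an exact permutation test. The 8 genes and the gene lists were chosen with earlier results of these data known. Beyond the 8, the rule named up to 3 called genes per direction, list and comparison against MR, requiring 5 CPM on average, and the 3 most similar genes, of which the closest is given. Alternatives were other scalings and filters, DESeq2 1.42.0, smaller fits, an Alb term (at least 100 counts), the study's threshold (unadjusted p and 1.2-fold) and leaving out each library. List counts under other scalings, the Alb term and DESeq2, and the alternatives of Mmp9 and Ctsk, were added after seeing the data. The scripts were tested on simulated data. Figures were drawn with matplotlib 3.10.9. Some genes are not reported here by name.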

Additional observations from a re-analysis of the deposited data

How the results depend on the processing

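Of 408 values of the 8 genes under settings that kept all libraries, 376 kept their direction and their side of the threshold, 12 lost a call, 11 gained one and 9 turned sign. With a library left out, 259 of 288 kept both, 14 lost a call, 4 gained one and 11 turned sign. No value that turned sign was called under the setting that turned it. No paired analysis was possible because the labels give no shared replicate numbers, and the numbers used here follow the order of deposition.

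Under total-count scaling the sign turned for Traf6 (−0.13) and Map3k7 (−0.023) between JQ1 and MR, Traf6 between JQ1 and dBRD9 (−0.0095) and Map3k7 between JQ1 and DEX + iBRD9 (−0.078). That scaling called 2216 genes higher and 5170 lower with JQ1 against MR, where TMM called 3503 and 3687. Against dBRD9 it gave 2175 and 5261, where TMM gave 3549 and 3828, and against DEX + iBRD9 2161 and 5234, where TMM gave 3535 and 3665. With the Alb term the sign turned for Tnfrsf11a (0.031 for dBRD9 and −0.022 for DEX + iBRD9 against MR, −0.053 between them), Nfatc1 (−0.0023 for dBRD9 against MR) and Ppargc1b (−0.014 for DEX + iBRD9 against dBRD9). Among Mitf and Tfec alone, the Mitf share differed by 1.58 points for JQ1 against dBRD9, −0.56 for DEX + iBRD9 against dBRD9 and 2.14 for JQ1 against DEX + iBRD9, and against MR by −5.96 for dBRD9, −4.38 for JQ1 and −6.51 for DEX + iBRD9. The cause was not tested.

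The number of the 8 genes called was 0 for dBRD9 against MR and 2 for JQ1 against DEX + iBRD9 with the Alb term. For DEX + iBRD9 against MR it was 1 without a filter, in the fit of 6 and in the fit of 9 libraries (Mitf). For DEX + iBRD9 against dBRD9 it was 1 in both smaller fits and in DESeq2 (Traf6). With a library left out it was 0 to 1 for dBRD9, 5 to 7 for JQ1 and 0 for DEX + iBRD9 against MR. It was then 5 to 8 for JQ1 and 0 for DEX + iBRD9 against dBRD9, and 5 to 6 for JQ1 against DEX + iBRD9. Over all genes, the JQ1 runs with a library left out called 6593 to 7060 against MR. They called 6866 to 7102 against dBRD9 and 6578 to 7149 against DEX + iBRD9.

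With a library left out, log2 fold changes that turned sign ranged from −0.046 to 0.072 (Nfatc1), −0.020 to 0.32 (Prdm1) and −0.023 to 0.094 (Tfec) for dBRD9 against MR, from −0.0046 to 0.11 for Traf6 with JQ1, from −0.022 to 0.039 (Tnfrsf11a) and −0.18 to 0.074 (Ppargc1b) for DEX + iBRD9 against MR, and from −0.036 to 0.30 for Prdm1 between DEX + iBRD9 and dBRD9.

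Over all genes, 191 were called for dBRD9 against MR, but 535 without a filter, 390 in DESeq2, 776 in the fit of 6 libraries, 924 in that of 9, 797 at the study's threshold, 1 with the Alb term and 15 to 145 with a library left out. For DEX + iBRD9 against MR 228 became 573, 364, 1054, 664, 799, 101 and 54 to 170 in the same order, and against dBRD9 275 became 743, 481, 849, 960, 905, 0 and 8 to 352. For JQ1 against DEX + iBRD9 7200 became 4282 with the Alb term. Ppargc1b and Prdm1 had the fewest counts and the widest intervals.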
